A study of Homo sapiens with 4 samples.

Results

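Human chromosome 19 carries the densest collection of zinc finger genes in the genome, and the protein-coding genes there whose symbol is ZNF followed by a number (with or without a letter) were described in prostate cancer cells. A gene was taken when its summed deposited count over the 4 libraries reached 40, which kept 233 of the 246 such genes in the table and 233 of its 20332 genes in all. The members were thus chosen by their summed count, which takes no account of the direction of a difference, and their levels are given as a description. The lowest members were ZNF154 with a sum of 58 counts and ZNF729 with 59.01, and the genes just outside were ZNF575 with 38 and ZNF114 with 35. The median member had 772 counts. All 233 passed the filter on low counts, although a gene such as ZNF69, which had no counts in one of the lines, passed through the line where it was high.

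The study measured RNA from LN-35, a subline of LNCaP labelled as resistance cells treated with enzalutamide, a drug that blocks the androgen receptor, and from LNCaP itself, an androgen-dependent human prostate cancer cell line labelled WT. The study's methods describe LN-35 as the end of a stepwise increase in enzalutamide, with a move to charcoal-stripped serum, whereas the labels give both lines the same RPMI-1640 medium with fetal bovine serum. The sources used here give neither whether the drug was in the medium at harvest nor whether LN-35 is a single clone. There were 2 libraries of each line, and the comparison asked which genes differ between the resistant subline and its parent. Nothing in the labels says that the libraries of a line are separate cultures, and every p-value therefore rests on a spread between libraries that may be no more than technical.

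Library totals were 12225173 and 12892059 counts for LN-35, and 15333722 and 13598458 counts for LNCaP. The zinc finger members took 0.426% and 0.425% of the counts in LN-35, and 0.451% and 0.448% in LNCaP. Mitochondrially encoded genes took 13.8% and 14.8% of counts in LN-35, against 9.53% and 9.39% in LNCaP, and their part in the results below was not tested. Among 7 luminal prostate markers, all detected in both lines, 2 were called higher and 4 lower in LN-35, and their summed level was 3653 to 3667 CPM (counts per 1e6 normalised counts) in LN-35 and 3564 to 3574 CPM in LNCaP. The 5 neuroendocrine markers that could be tested were called higher in LN-35, INSM1 was at 0 in both lines, and the list summed to 252 to 269.9 CPM in LN-35 and 55.5 to 60.7 CPM in LNCaP. The fibroblast list summed to 44.9 to 47.3 CPM in LN-35 and 36.8 to 45.4 CPM in LNCaP, with 3 of 4 tested genes called higher. The leukocyte list summed to 14.4 to 18.3 CPM in LN-35 and 146 to 154 CPM in LNCaP, of which LCP1 averaged 5.11 CPM in LN-35 and 138 CPM in LNCaP, and the defining marker CD3E was at 0 in both lines. The endothelial list summed to 0.333 to 0.805 CPM in LN-35 and 5.65 to 6.67 CPM in LNCaP, with CDH5 and KDR at 0 in both lines. A list of genes typical of other prostate cancer lines summed to 208 to 213 CPM in LN-35 and 143 to 144 CPM in LNCaP, with 3 of 4 tested genes called higher and 1 lower. The part of these markers in the results below was not tested, and in bulk RNA a smaller share of cells with a transcript and less transcript per cell cannot be told apart.

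Most genes of this family encode proteins in which a KRAB domain at one end is followed by a row of C2H2 zinc fingers. The fingers read DNA, mostly in transposable elements, and the KRAB domain binds the scaffold protein TRIM28 (KAP1), which brings in the histone methyltransferase SETDB1, HP1 proteins and the NuRD deacetylase complex, so that the bound chromatin is silenced. The genes arose by repeated local duplication in primates and other mammals and lie in clusters, which are themselves covered by H3K9me3 at the gene ends where ZNF274 binds.

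The coding sequences of the members, translated from GENCODE transcripts, held a median of 12 C2H2 finger patterns, ranging from 0 in ZNF738 to 36 in ZNF208. A KRAB pattern was found in 196 members and not found in 37, which does not show that the domain is absent there. The promoters of 204 of the 233 members could be matched in RefSeq (GRCh38.p14), each covering 250 bases before to 50 bases after the start. They held a median of 20 CpG dinucleotides (range 2 to 42), whereas the median over all 35116 promoters of the same length was 14. The ratio of observed to expected CpG had a median of 0.765 in members and 0.579 in all promoters, while the GC content was close, with medians of 60% and 58.7%.

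The promoters of the 4 members with the widest separation between the lines are shown so that the range of CpG content among them can be read. Each is given 5′ to 3′ in the direction of the gene, in lower case with every CpG in capitals. ZNF69 lies at chr19:11887532-11887831 on the plus strand with 8 CpG, ZNF681 at chr19:23758842-23759141 on the minus strand with 9, ZNF135 at chr19:58058989-58059288 on the plus strand with 32, and ZNF415 at chr19:53132861-53133160 on the minus strand with 17.
ZNF69: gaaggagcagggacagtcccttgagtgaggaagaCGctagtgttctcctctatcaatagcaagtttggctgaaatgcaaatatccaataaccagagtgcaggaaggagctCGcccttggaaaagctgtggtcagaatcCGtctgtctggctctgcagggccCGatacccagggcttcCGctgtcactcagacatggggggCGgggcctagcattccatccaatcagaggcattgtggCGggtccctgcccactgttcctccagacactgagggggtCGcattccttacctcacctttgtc
ZNF681: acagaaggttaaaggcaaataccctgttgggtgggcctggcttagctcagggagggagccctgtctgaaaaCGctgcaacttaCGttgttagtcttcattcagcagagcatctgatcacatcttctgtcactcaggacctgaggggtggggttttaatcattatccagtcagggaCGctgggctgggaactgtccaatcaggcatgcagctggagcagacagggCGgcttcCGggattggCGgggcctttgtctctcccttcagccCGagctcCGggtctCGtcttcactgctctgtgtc
ZNF135: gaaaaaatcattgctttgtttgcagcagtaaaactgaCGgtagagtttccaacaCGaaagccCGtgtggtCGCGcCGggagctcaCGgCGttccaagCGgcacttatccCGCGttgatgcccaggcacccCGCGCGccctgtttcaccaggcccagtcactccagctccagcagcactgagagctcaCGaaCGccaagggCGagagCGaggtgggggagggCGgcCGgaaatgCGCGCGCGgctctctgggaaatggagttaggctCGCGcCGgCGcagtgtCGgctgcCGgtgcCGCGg
ZNF415: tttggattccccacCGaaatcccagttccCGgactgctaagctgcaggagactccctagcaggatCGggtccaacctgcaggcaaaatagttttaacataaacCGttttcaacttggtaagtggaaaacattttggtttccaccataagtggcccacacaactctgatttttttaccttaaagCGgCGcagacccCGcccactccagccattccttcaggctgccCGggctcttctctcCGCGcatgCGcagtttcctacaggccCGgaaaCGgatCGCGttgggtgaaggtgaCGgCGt

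Of these promoters, the first pair was CpG-poor for the family, the ZNF135 promoter was CpG-rich, and that of ZNF415 lay near the family median. Members called higher in LN-35 had a median of 19.5 CpG, members called lower 20, and members not called 21. The letters AAGATGGCG, the core of the motif of the factor YY1, were found on either strand in 8 of the 204 member promoters (3.92%) and in 614 of all 35116 promoters (1.75%). Of those 8 members, 3 were called higher (37.5%, near the 36.4% of all genes tested) and 2 lower (25%, against 35.5%).

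As a family, the chromosome 19 zinc finger genes were called less often than the average of all genes tested. Their total level after normalisation was nearly the same in both lines. The summed level of the 233 members was 4341 and 4409 CPM in LN-35, and 4385 and 4368 CPM in LNCaP, so that the libraries of the lines overlapped on this scale. As shares of the counts before normalisation they did not overlap, with 0.426% and 0.425% in LN-35, against 0.451% and 0.448% in LNCaP. By the quasi-likelihood test of edgeR, adjusted by Benjamini-Hochberg over all 13744 genes tested, 76 members were called higher in LN-35, 51 were called lower and 106 were not called at an adjusted p under 0.05. The share called was 54.5% of members, against 71.8% of all genes tested. In the upward direction it was 32.6% of members against 36.4% of all genes, and in the downward direction 21.9% against 35.5%. DESeq2 called fewer members, 44 higher and 35 lower. Of the 106 members not called by edgeR, 63 had a 95% interval of the fold change that stayed within 1.5-fold in either direction.

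The sizes of the differences were small as well. The median log2 fold change of the members, LN-35 over LNCaP, was 0.05 with quartiles of -0.31 and 0.45, beside a median of -0.01 over all genes. The median absolute log2 fold change was 0.38 in members and 0.61 in all genes. A call with at least a 2-fold difference was made for 25 members upward and 15 downward, which is to be read against 18.4% and 14.2% of all genes. In 93 members both LN-35 libraries were above both LNCaP libraries (39.9%, against 42.7% of all genes), and in 75 both were below (32.2%, against 42.8%).

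The members were also less abundant than the average tested gene, with a median level of 14.3 CPM in LN-35 and 13.5 CPM in LNCaP, where all tested genes had 26.1 CPM in each line. The part of this lower level in the smaller share of calls was not tested. Of the 58 members with the highest summed counts, 17 were called higher (29.3%) and 21 lower (36.2%). Of the 59 with the lowest, 21 were called higher (35.6%) and 11 lower (18.6%), beside 36.4% and 35.5% of all genes. Sampling error is larger in the lowest set, where the median level was 4.70 CPM in LN-35 and 4.45 CPM in LNCaP.

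Zinc finger genes with ZNF symbols on other chromosomes, of which 236 were tested, had 86 called higher and 70 lower, a called share of 66.1%, and a median log2 fold change of 0.03. The 767 other protein-coding genes of chromosome 19 without a pair of fingers had 347 called higher and 196 lower, a called share of 70.8%, and a median of 0.24. The 23 finger genes of chromosome 19 with other symbols had 3 called higher and 6 lower, a called share of 39.1%. No test was made between these sets.

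Within the family, members with and without the KRAB pattern were called at shares of 55.6% and 48.6%. Of the 196 members with the pattern, 64 were called higher and 45 lower, and of the 37 without it 12 were called higher and 6 lower. All 15 members that fell by at least 2-fold carried the pattern, as did 17 of the 25 that rose by at least 2-fold and 196 of the 233 members in all. Whether the pattern went with the direction of a difference was not tested. Of the 75 members with 15 or more fingers, 31 were called higher (41.3%) and 16 lower (21.3%). Of the 59 with at most 9 fingers, 17 were called higher (28.8%) and 13 lower (22.0%), beside 36.4% and 35.5% of all genes.

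**Figure D1:**
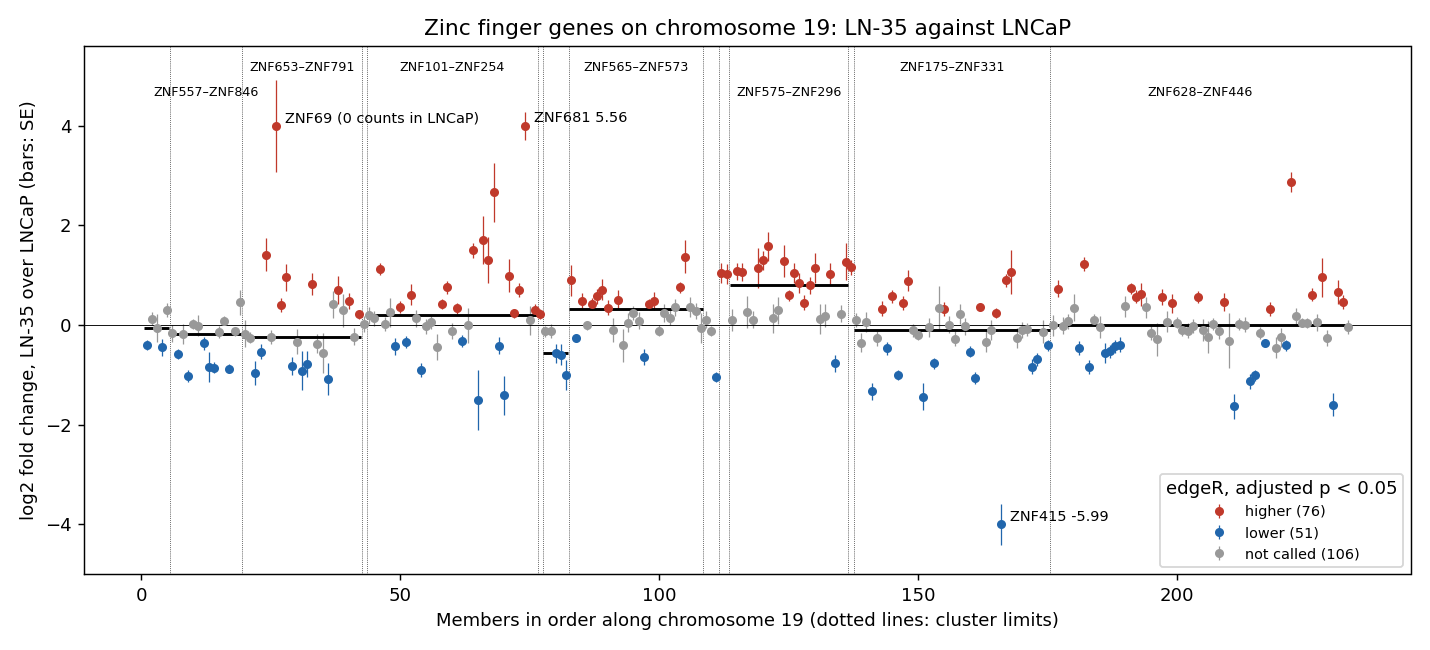
Log2 fold change, LN-35 over LNCaP, of the 233 members in their order along chromosome 19, with bars of 1 SE. Colours mark calls by edgeR, dotted lines the cluster limits and thick lines the cluster median where a cluster has 5 or more members. ZNF69, ZNF681 and ZNF415 are drawn at the edge of the scale because their values lie beyond it. Calls in both directions occur along most of the chromosome, and some stretches are one-sided. From ZNF575 to ZNF296, 14 of 23 members were called higher (60.9%, against 36.4% of all genes) and 1 lower. From ZNF557 to ZNF846, 6 of 14 were called lower (42.9%, against 35.5%) and 0 higher. Among smaller stretches, 3 of 5 from ZNF302 to ZNF792 were called lower (60%, against 35.5%) and 0 higher. From ZNF554 to ZNF77, 2 of 5 were called lower (40%, near the 35.5% of all genes) and 0 higher. The latter stretch was mixed, with a median of -0.06 and ZNF77 at 0.30 (not called).

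Along the chromosome the members fell into runs, here called clusters, of annotated ZNF genes whose neighbouring starts lay at most 1 Mb apart. Positions are from GENCODE release 29 on GRCh38. The clearest run of rises was the cluster on the long arm at 43.5 to 45.1 Mb, which holds the ZNF45 and ZNF224 relatives. There 14 of 23 members were called higher (60.9%, against 36.4% of all genes tested) and 1 lower, and the median log2 fold change was 0.79. A rise of at least 2-fold was called in 10 of the 23, beside 18.4% of all genes. The summed level of its members was 260.0 and 279.8 CPM in LN-35, against 181 and 177 CPM in LNCaP. The 17 other protein-coding genes tested in the same span moved the same way, with 12 called higher, 3 lower and a median of 0.97.

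In this cluster ZNF230 (chr19:44002948-44013926) had 7.58 and 6.92 CPM in LN-35, against 2.54 and 2.29 CPM in LNCaP. The lines did not overlap, and the difference was 1.58 ± 0.29 on the log2 scale (SE, edgeR adjusted p = 3.41e-05). Its neighbour ZNF155 had 14.7 and 17.4 CPM in LN-35, against 5.78 and 7.31 CPM in LNCaP, a log2 fold change of 1.30 ± 0.19 (edgeR adjusted p = 1.72e-06). ZNF224, a KRAB repressor first described at the aldolase A gene and a partner of WT1, had 36.2 and 38.2 CPM in LN-35, against 23.1 and 26.2 CPM in LNCaP. All LN-35 values of ZNF224 were above the LNCaP ones, with a log2 fold change of 0.59 ± 0.12 (edgeR adjusted p = 7.34e-05). ZNF229 went the other way, with 8.08 and 9.74 CPM in LN-35, against 16.6 and 13.8 CPM in LNCaP (log2 fold change -0.77 ± 0.18, edgeR adjusted p = 5.31e-04). ZNF45 itself was not called, with 13.7 and 12.6 CPM in LN-35, against 13.1 and 11.1 CPM in LNCaP. ZNF155, ZNF229 and ZNF45 were chosen after their values were seen.

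In windows of 5 Mb, members and other protein-coding genes had like medians around this cluster but not along the whole chromosome. Between 40 and 45 Mb the median log2 fold change was 0.69 over 26 members and 0.68 over 63 other protein-coding genes, of which 37 were called higher and 9 lower. Between 45 and 50 Mb there was 1 member, ZNF296, and the 132 other genes had 93 called higher, 14 lower and a median of 0.86. Between 50 and 55 Mb, by contrast, 39 members had 10 called higher, 11 lower and a median of -0.11, while 37 other genes had 19 called higher, 10 lower and a median of 0.27. In the other windows with 20 or more members and any other genes, the medians of members and other genes were -0.20 and 0.14 at 10 to 15 Mb, 0.29 and 0.18 at 35 to 40 Mb, and 0.00 and 0.28 at 55 to 60 Mb. ZNF473 (chr19:50025714-50053414), which encodes a protein of histone mRNA processing, had 37.1 and 30.7 CPM in LN-35, against 13.3 and 17.1 CPM in LNCaP. Its log2 fold change was 1.16 ± 0.14 (edgeR adjusted p = 1.74e-07). On the centromere side, ZNF574 and ZNF526 made up a small cluster at 42.1 to 42.2 Mb and were both called higher, with log2 fold changes of 1.04 ± 0.20 and 1.02 ± 0.19. These 3 genes too were chosen after their values were seen.

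In the cluster at 36.2 to 37.8 Mb, 11 of 26 members were called higher (42.3%, near the 36.4% of all genes) and 2 lower (7.69%, against 35.5%), and the median log2 fold change was 0.32. Leaving out LN-35 replicate 2 reduced the 11 rises there to 7. Its summed level of 592 and 597 CPM in LN-35 was only slightly above the 569 and 547 CPM in LNCaP, and the most abundant member fell. That member was ZNF146, a protein made of fingers with little else, and it had the highest level per kb of exon of any member in both lines, at 38.0 CPM per kb in LN-35 and 45.7 CPM per kb in LNCaP. It had 159 and 156 CPM in LN-35, against 195 and 184 CPM in LNCaP, a log2 fold change of -0.27 ± 0.07 (edgeR adjusted p = 0.00166). ZNF146 shares exon sequence on the opposite strand with ZNF565, and without strand the reads of such partners cannot be told apart. ZNF540 (chr19:37551406-37614097) was the largest rise of this cluster, with 5.58 and 4.75 CPM in LN-35, against 1.90 and 2.08 CPM in LNCaP (log2 fold change 1.37 ± 0.33, edgeR adjusted p = 8.20e-04). ZNF540 also overlaps exons of ZFP30 on the opposite strand and of ZNF571-AS1 on the same strand.

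The same cluster holds 4 pairs of members whose starts face away from each other within 1 kb. ZNF529 and ZNF382 were both called higher, with log2 fold changes of 0.42 ± 0.12 and 0.58 ± 0.15. ZNF585B and ZNF383 were both called higher, with 0.42 ± 0.11 and 0.48 ± 0.18. ZNF790 was called higher at 0.51 ± 0.19 while its partner ZNF345 was not called at -0.41 ± 0.32. In the last pair neither ZNF829 nor ZNF568 was called. The members of 3 of these pairs overlap at their starts, so their reads are not fully separate.

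In the pericentromeric cluster at 19.7 to 24.1 Mb, rich in long primate zinc finger genes, 15 of 33 members were called higher (45.5%, against 36.4% of all genes) and 7 lower (21.2%, against 35.5%), with a median of 0.20. The falls numbered 4 without LNCaP replicate 1 and 2 without LN-35 replicate 1. The summed level there was 604 and 608 CPM in LN-35, against 506 and 503 CPM in LNCaP. No other protein-coding gene without fingers was tested in this span.

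Some clusters had no member called higher. At 7.07 to 9.79 Mb, 6 of 14 members were called lower (42.9%, near the 35.5% of all genes) and 0 higher (against 36.4%), and the median was -0.17. No member of this cluster was higher at an unadjusted edgeR p under 0.05 or by DESeq2 either (0 and 0). The falls by DESeq2 numbered 4. The summed level of these 14 members was 389 and 410 CPM in LN-35, against 513 and 508 CPM in LNCaP, while the 31 other genes in the span had 10 called higher and 10 lower. On the long arm at 34.68 to 34.96 Mb, 3 of 5 members were called lower (60%, against 35.5% of all genes), with a median of -0.57, and DESeq2 called 1 lower. On the short arm at 11.5 to 12.6 Mb, 8 of 23 members were called higher (34.8%, near the 36.4% of all genes) and 6 lower (26.1%, against 35.5%). Fewer members there were called higher when LN-35 replicate 1 was left out.

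The largest clusters, toward the end of the long arm, were split. At 51.6 to 53.6 Mb, 1 of 38 members was called at least 2-fold higher, beside 18.4% of all genes. In the other direction 5 of 38 were called at least 2-fold lower, beside 14.2% of all genes. In that cluster 9 of 38 members were called higher (23.7%, against 36.4% of all genes) and 11 lower (28.9%, against 35.5%). The rises numbered 5 without LNCaP replicate 1, 5 without LN-35 replicate 1 and 4 without LN-35 replicate 2. At 55.5 to 58.5 Mb, 15 of 58 members were called higher and 12 lower, with a median of 0.00, and the rises numbered 9 without LN-35 replicate 2. The shares of these 58 called were 25.9% higher and 20.7% lower, against 36.4% and 35.5% of all genes. Their summed level was 1069 and 1068 CPM in LN-35, and 1082 and 1040 CPM in LNCaP.

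**Figure D2:**
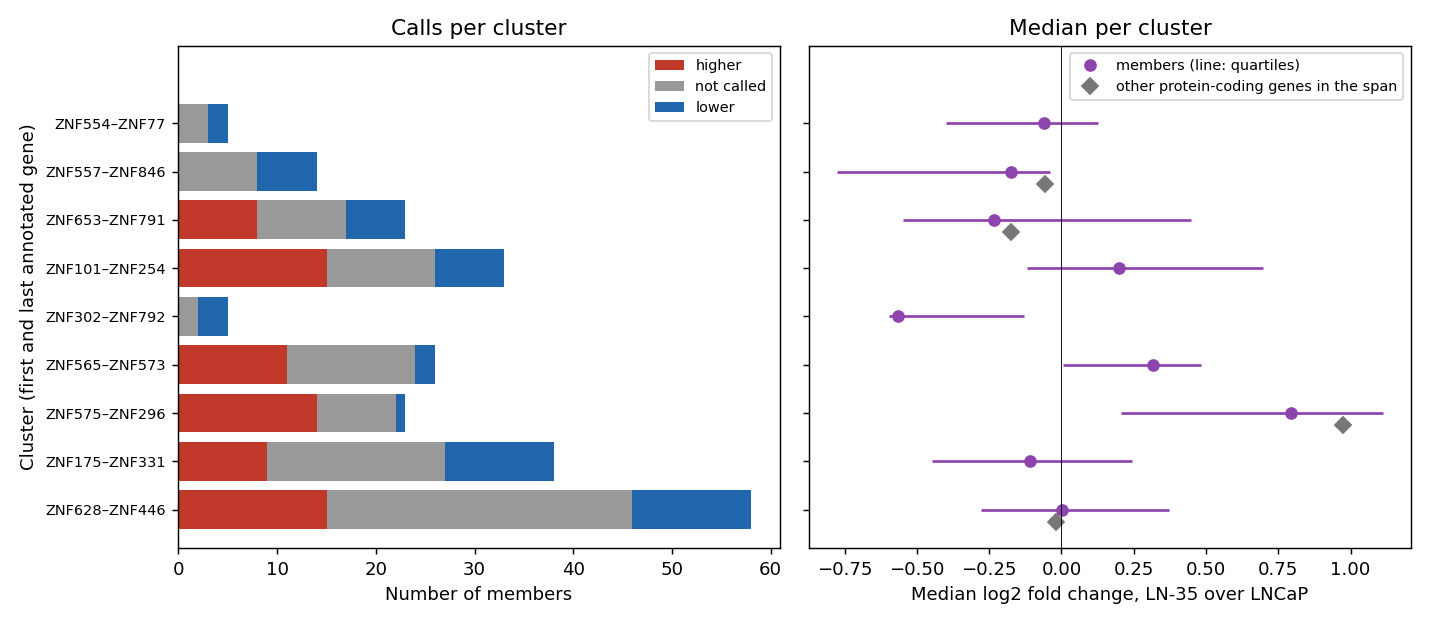
Left, number of members called higher, not called and called lower in LN-35 in each cluster of 5 or more members, from the short arm end at the top. Right, median log2 fold change of the members with a line between the quartiles, and of other protein-coding genes in the span where at least 4 were tested. The cluster from ZNF575 to ZNF296 stands farthest to the right at 0.79, with its other genes at 0.97.

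Direct neighbours in a cluster tracked each other weakly. Over 219 neighbouring pairs the log2 fold changes had a Spearman correlation of 0.18 and a Pearson correlation of 0.04, across genes that share libraries and in part sequence and are not independent. Of the 68 pairs in which both genes were called, 41 went in the same direction. Among all called members 59.8% were higher, so some agreement follows from that mix of directions, and how much was not tested. An example of opposed neighbours is ZNF415 with ZNF347, whose span overlaps it on the same strand and which had 32.2 and 32.3 CPM in LN-35, against 17.5 and 17.1 CPM in LNCaP. ZNF347 was chosen after its values were seen.

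Against this mostly even background, a few members were nearly silent in one line. ZNF69 (ENSG00000198429, chr19:11887784-11914329) had 64 and 57 deposited counts in LN-35, against 0 and 0 in LNCaP. That is 5.33 and 4.59 CPM in LN-35, and at least 49.1-fold higher than a floor of 3 counts over the LNCaP libraries, 0.101 CPM (edgeR adjusted p = 8.35e-09). The reads carry no molecular identifiers, so such a floor covers counting error only.

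ZNF681 (ENSG00000196172, chr19:23739195-23758891) was likewise near zero in the parent, with 21.2 and 20.9 CPM in LN-35, against 0.317 and 0.574 CPM in LNCaP. On the log2 scale the difference was 5.56 ± 0.28, or 47.0-fold (edgeR adjusted p = 1.83e-14). ZNF135 (ENSG00000176293, chr19:58059239-58086310) had 20.2 and 21.3 CPM in LN-35, against 2.67 and 3.01 CPM in LNCaP. For ZNF135 the log2 fold change was 2.87 ± 0.20, or 7.32-fold (edgeR adjusted p = 5.83e-12), and exons of ZSCAN18 overlap it on the other strand.

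The reverse was seen for ZNF415 (ENSG00000170954, chr19:53107879-53133077), which had 2 counts in each LN-35 library. Its level was 0.167 and 0.161 CPM in LN-35, against 10.7 and 11.2 CPM in LNCaP. ZNF415 was thus 63.4-fold lower in LN-35, with a log2 fold change of -5.99 ± 0.41 (edgeR adjusted p = 5.65e-12), the largest fall of any member.

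Of the further rises, ZNF676 was the most abundant, with 26.4 and 26.5 CPM in LN-35, against 9.01 and 9.68 CPM in LNCaP (log2 fold change 1.5 ± 0.15, edgeR adjusted p = 3.46e-09). ZNF99 had 3.17 and 2.01 CPM in LN-35, against 0.635 and 0.143 CPM in LNCaP, a log2 fold change of 2.66 ± 0.59, and its size rested on the LNCaP libraries, being 4.08 without LNCaP replicate 1 and 2.01 without LNCaP replicate 2. ZNF491 had 5.75 and 6.20 CPM in LN-35, against 1.78 and 2.72 CPM in LNCaP, a log2 fold change of 1.41 ± 0.32. In none of these did the lines overlap. ZNF676, ZNF681 and ZNF135 had fractional counts, as had the next pair, whose calls were lost under some alternatives. ZNF98 had 2.50 and 4.27 CPM in LN-35, against 1.46 and 0.574 CPM in LNCaP, and its call was lost without LN-35 replicate 2 (edgeR adjusted p = 0.103). The log2 fold change of ZNF98 was 1.71 ± 0.48, and 2.54 without LNCaP replicate 1. ZNF492 had 2.67 and 2.33 CPM in LN-35, against 1.08 and 0.932 CPM in LNCaP, and its call was lost when any of the 4 libraries was left out and by DESeq2 (adjusted p = 0.0591 to 0.125). ZNF676, ZNF99, ZNF98 and ZNF492 all lie in the pericentromeric cluster.

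Of the further falls, ZNF671 and ZNF132 are known for promoter DNA methylation in tumours, ZNF132 in prostate cancer among them. ZNF671 had 2.58 and 3.14 CPM in LN-35, against 9.52 and 8.24 CPM in LNCaP (log2 fold change -1.63 ± 0.26, edgeR adjusted p = 5.14e-06). ZNF132 had 4.33 and 3.78 CPM in LN-35, against 14 and 10.5 CPM in LNCaP (log2 fold change -1.60 ± 0.23, edgeR adjusted p = 1.12e-06). In both genes the LN-35 libraries lay well under the LNCaP ones. DNA methylation was not analysed here.

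ZNF613 had 8.16 and 7.08 CPM in LN-35, against 19.7 and 18.6 CPM in LNCaP, a log2 fold change of -1.33 ± 0.17. ZNF552 had 10.0 and 9.01 CPM in LN-35, against 21.0 and 20.6 CPM in LNCaP, a log2 fold change of -1.13 ± 0.16. ZNF468 had 18.7 and 17.8 CPM in LN-35, against 36.9 and 39.0 CPM in LNCaP, a log2 fold change of -1.06 ± 0.12. These 3 falls were separated between the lines, and ZNF468 overlaps exons of ZNF28 and ZNF320 on the same strand, of which the first was called lower and the other higher. ZNF610, ZNF730 and ZNF442 fell at lower levels, with log2 fold changes of -1.44 ± 0.28, -1.41 ± 0.38 and -1.08 ± 0.32. ZNF729 had 0.5 and 0.563 CPM in LN-35, against 2.16 and 0.860 CPM in LNCaP, and without LNCaP replicate 1 its log2 fold change was -0.69 with the call lost (edgeR adjusted p = 0.539). Leaving out either LN-35 library, the replicate block, DESeq2 and the unfiltered fit also lost the ZNF729 call, with adjusted p of 0.0573 to 0.178.

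**Figure D3:**
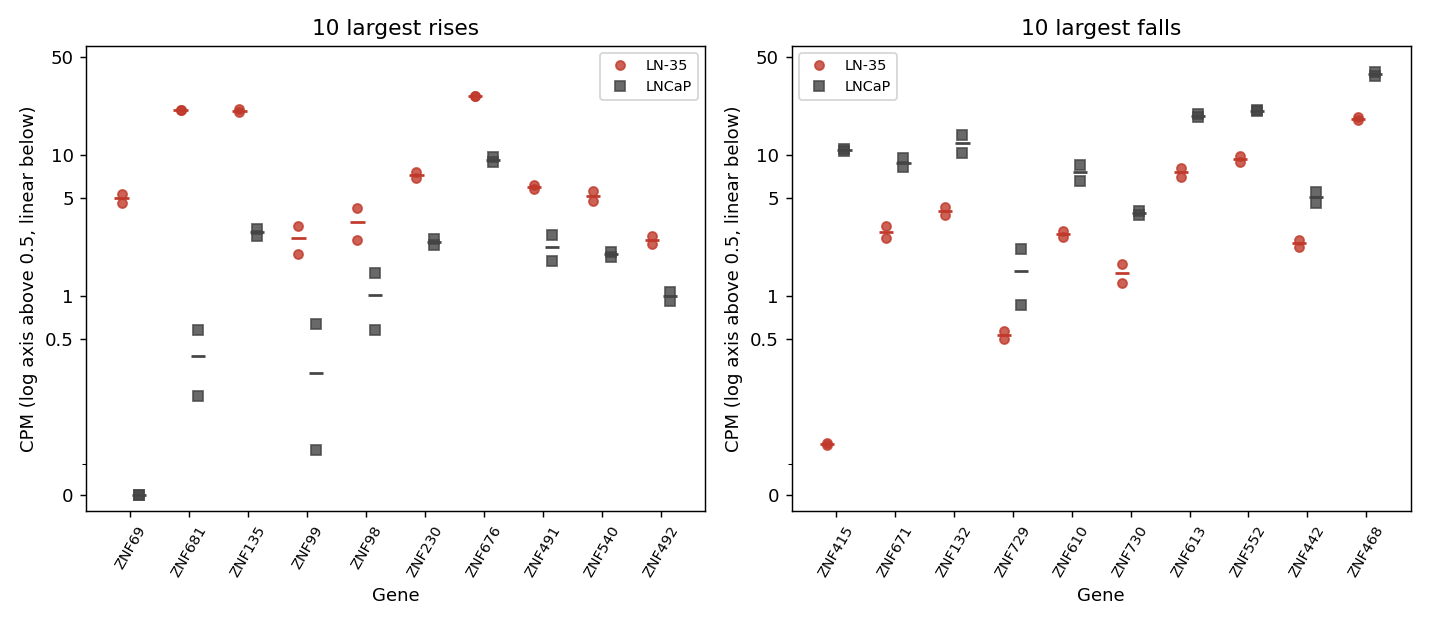
Level in CPM of each library for the 10 members with the largest rise (left panel) and the 10 with the largest fall (right panel) among called members. Circles are LN-35 libraries, squares LNCaP libraries and short lines the mean of the 2 libraries, on an axis that is logarithmic above 0.5 CPM and linear below. The lines do not overlap in any of these genes, and ZNF69 in LNCaP sits at 0.

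Of the 15 members with known roles, 4 were called higher, 5 lower and 6 not called, where 36.4% of all genes tested were called higher and 35.5% lower. ZNF274, which binds the 3′ ends of zinc finger genes and brings H3K9me3 to them, had 52.3 and 52.6 CPM in LN-35, and 50.3 and 51.5 CPM in LNCaP. Its log2 fold change was 0.04 with a 95% interval of -0.15 to 0.23, and it was not called. ZNF91, a repressor of SVA retrotransposons, had 74.7 and 73.3 CPM in LN-35, against 64.4 and 61.4 CPM in LNCaP. The log2 fold change of ZNF91 was 0.24 ± 0.08 (edgeR adjusted p = 0.0157), and the call was lost with library totals in place of TMM factors, by DESeq2, and when LNCaP replicate 2 or either LN-35 library was left out (adjusted p = 0.0547 to 0.101). ZNF93, which represses L1 elements, had 5.08 and 6.20 CPM in LN-35, and 3.30 and 6.24 CPM in LNCaP, so the lines overlapped and it was not called.

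ZNF417 and ZNF587, related repressors of young endogenous retroviruses, were called in opposite directions. ZNF587 had 55.9 and 55.3 CPM in LN-35, against 72.7 and 70.1 CPM in LNCaP (log2 fold change -0.36 ± 0.09, edgeR adjusted p = 6.43e-04). ZNF417 had 23.1 and 26.1 CPM in LN-35, against 21.9 and 17.6 CPM in LNCaP (log2 fold change 0.31 ± 0.14, edgeR adjusted p = 0.0475). The ZNF417 call was lost with library totals, by DESeq2 and without LNCaP replicate 2 or LN-35 replicate 2 (adjusted p = 0.132 to 0.347). Both genes had fractional counts, so their values are uncertain.

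ZNF558, a repressor of the mitophagy gene SPATA18, had 19 and 20.6 CPM in LN-35, against 41.8 and 38.8 CPM in LNCaP. It was 2.04-fold lower in LN-35 (log2 fold change -1.03 ± 0.12, edgeR adjusted p = 3.94e-08). ZNF331, another gene known for promoter methylation in tumours, was called lower at -0.40 ± 0.11. ZNF675, known as TIZ, an inhibitor of TRAF6 signalling, had 27.2 and 24.4 CPM in LN-35, against 16.8 and 14.9 CPM in LNCaP. That was a log2 fold change of 0.70 ± 0.14 (edgeR adjusted p = 8.81e-05).

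The remaining genes with a known role were not called. They were ZNF350, a partner of BRCA1, at -0.27 ± 0.16, ZNF154 at -0.31 ± 0.55 and ZNF677 at -0.26 ± 0.20, the last pair known for promoter methylation in tumours. ZNF568, whose mouse counterpart represses a placental Igf2 transcript, stood at 0.24 ± 0.14 and was called only without LNCaP replicate 1 (edgeR adjusted p = 0.0419). For ZNF154 the level of about 1 CPM leaves a wide interval, so a difference was not detectable at this depth.

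The machinery through which KRAB zinc finger proteins silence chromatin was read from a list of 36 genes, all of them tested. In LN-35 16 were called higher (44.4%, against 36.4% of all genes tested) and 9 lower (25%, against 35.5%), with a median log2 fold change of 0.13. The share called in either direction was 69.4%, near the 71.8% of all genes. TRIM28, the scaffold that KRAB domains bind, had 359.5 and 322 CPM in LN-35, against 239 and 233 CPM in LNCaP. Its log2 fold change was 0.53 ± 0.07 (edgeR adjusted p = 6.02e-07). SETDB1, the histone H3K9 methyltransferase it recruits, had 65.2 and 71.9 CPM in LN-35, and 72.5 and 73.2 CPM in LNCaP, and was not called (log2 fold change -0.09 ± 0.09).

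ATF7IP, which stabilises SETDB1 in the nucleus, had 109 and 121 CPM in LN-35, against 56.0 and 60.9 CPM in LNCaP (log2 fold change 0.98 ± 0.08, edgeR adjusted p = 3.45e-10). Its relative ATF7IP2 had 141 counts over the LN-35 libraries and 1 count over the LNCaP libraries, a ratio of normalised counts of 171 with an exact 95% counting interval of 30.3 to 6819. TASOR, the core of the HUSH silencing complex, was called higher with a log2 fold change of 0.84 ± 0.08. Genes of the NuRD complex were called in both directions. CHD3, the remodeller that TRIM28 binds, had 116 and 112 CPM in LN-35, against 289.98 and 269.7 CPM in LNCaP. That was a log2 fold change of -1.30 ± 0.07 (edgeR adjusted p = 9.87e-14). MTA2 and the histone-binding subunit RBBP4 were called lower, at -0.56 ± 0.08 and -0.47 ± 0.07, and so was RBBP7 at -0.28 ± 0.08. HDAC1 and MTA1 were called higher, at 0.61 ± 0.07 and 0.34 ± 0.07, and CHD4, HDAC2 and MBD3 were not called. The NuRD genes other than CHD3, MTA2 and RBBP4 were chosen after their values were seen.

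**Figure D4:**
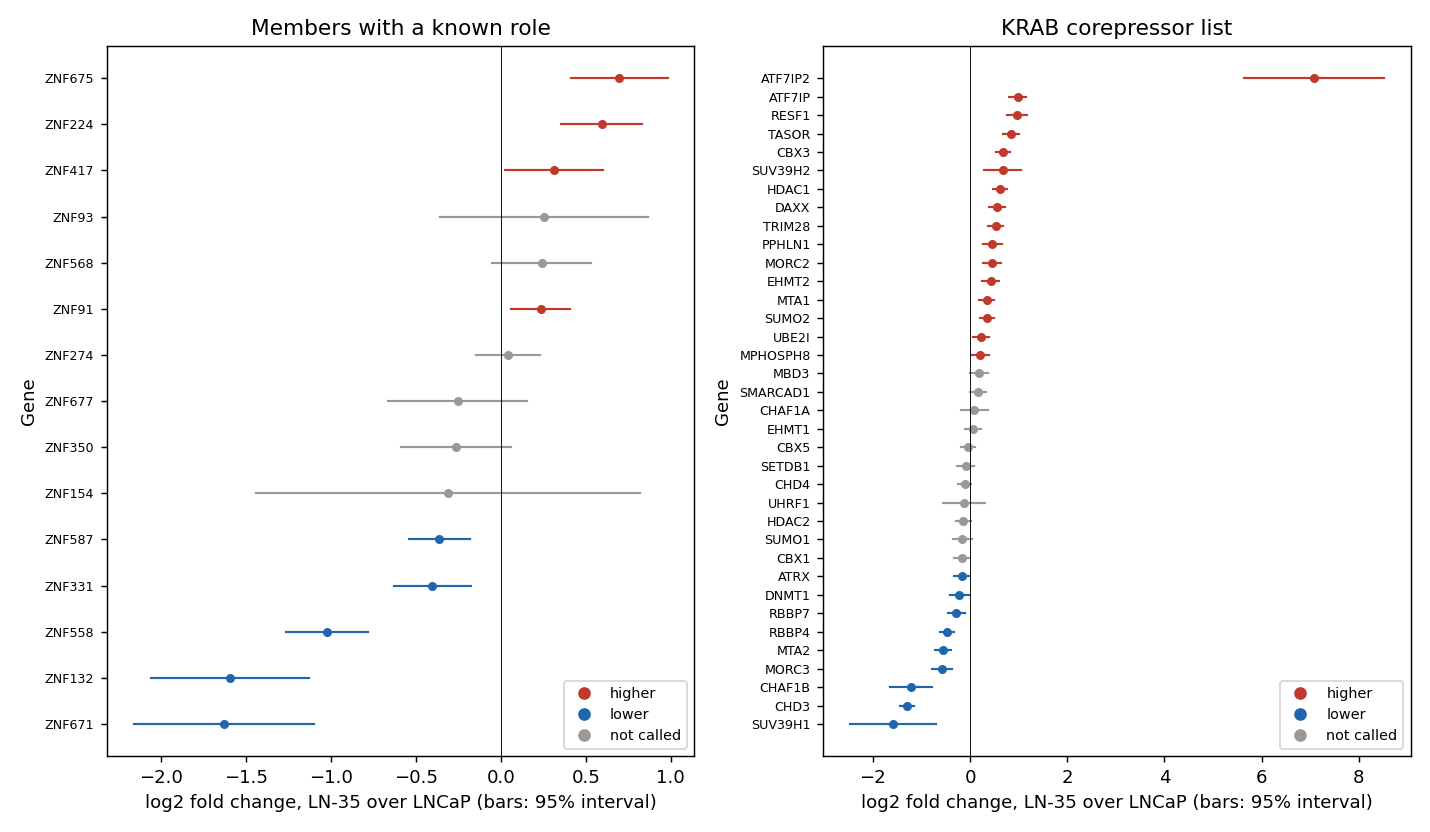
Log2 fold change, LN-35 over LNCaP, with 95% intervals for the 15 members with a known role (left panel) and the 36 corepressor genes (right panel), coloured by call. ZNF671 and ZNF132 lie farthest to the left among the members, and in the corepressor list 16 genes lie to the right of 0 and 9 to the left as called differences.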

How the data were processed

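Members and gene lists were chosen with earlier results of these data known, and the windows of 5 Mb were added after seeing the data. The authors deposited 1 table of estimated counts per gene, not scaled between libraries, for 2 libraries each of LN-35 and LNCaP. Alignment to hg38 with HISAT2 2.0.5 and counting with featureCounts 1.5.0-p3 are named in the submitters' processing notes. Between 11.5% and 12.0% of a library's values were not whole. How the fractional values arose is stated in none of the sources used here. Genes with shared sequence are therefore uncertain, among them 79 members with fractional counts. Counting by strand is not mentioned, and 130 members share exon sequence with another gene.

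Symbols were found for 20304 identifiers and GENCODE 29 positions for 20113, and ZNF875 was matched through its current symbol. Estimated counts were rounded, genes were kept by filterByExpr (minimum count 10), and libraries were scaled with TMM factors. LN-35 and LNCaP were compared with edgeR 4.0.16 (two-sided quasi-likelihood test, robust fit, group only), with Benjamini-Hochberg adjustment over 13744 genes and a threshold of 0.05. SE is the log2 fold change over the root of the F statistic. The fit was also run on simulated counts in which few genes were changed, unlike here, so that run does not measure the error of these calls. R 4.3.3, DESeq2 1.42.0 and Python 3.11.15 were used.

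Named genes were, among called members with at least 1 CPM in a group, the 10 largest rises and 10 largest falls, members without counts in a group, the highest per kb, 15 members with known roles, and in the corepressor list TRIM28, SETDB1 and the 3 smallest adjusted p per direction. Alternatives were other size factors, library totals, DESeq2, no filter, a replicate block, each library left out, a test against a log2 fold change of 0.58, members with whole counts only, a summed count minimum of 10 or 100 and a cluster gap of 0.5 Mb. The labels mark repeat 1 and repeat 2 with a batch tag, which was taken to pair the libraries. The correlation of the paired deviations was 0.01.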

Additional observations from a re-analysis of the deposited data

How the results depend on the processing

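No called member turned its sign under these alternatives. Of the 127 calls, 127 were kept with DESeq2 size factors, 113 with library totals, 79 by DESeq2, 124 without the filter on low counts and 95 to 103 with a library left out. With the replicate block, 121 were kept, and 71 members were called higher and 52 lower. The median log2 fold change of the members was 0.05, and -0.03 with library totals. DESeq2 called 44 members higher. A test against a log2 fold change of 0.58 called 23 higher and 19 lower, and members with whole counts alone, which are fewer, gave 46 higher and 32 lower. In the corepressor list the test against 0.58 called 4 higher and 3 lower.

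Cluster counts moved as follows. Rises by DESeq2 numbered 4 at 11.5 to 12.6 Mb, 8 at 19.7 to 24.1 Mb, 5 at 36.2 to 37.8 Mb, 4 at 51.6 to 53.6 Mb and 8 at 55.5 to 58.5 Mb, and falls 2 at 19.7 to 24.1 Mb and 1 at 34.68 to 34.96 Mb. Rises against 0.58 numbered 2, 5, 1, 9, 1 and 2 in the clusters that begin at 11.5, 19.7, 36.2, 43.5, 51.6 and 55.5 Mb, and falls 3, 1, 2, 0, 0, 7 and 5 in those that begin at 7.07, 11.5, 19.7, 36.2, 43.5, 51.6 and 55.5 Mb. With whole counts alone, rises numbered 4, 6, 8 and 8 in those that begin at 11.5, 19.7, 43.5 and 55.5 Mb, and falls 2, 1 and 7 in those that begin at 19.7, 36.2 and 51.6 Mb. With a cluster gap of 0.5 Mb, the last cluster was split and its largest piece had 6 falls. With each library left out, rises ranged from 5 to 7 at 11.5 to 12.6 Mb, 7 to 11 at 36.2 to 37.8 Mb, 4 to 6 at 51.6 to 53.6 Mb and 9 to 15 at 55.5 to 58.5 Mb, and falls from 2 to 5 at 19.7 to 24.1 Mb. By construction, a count over fewer members or a test against a larger difference cannot raise these counts. With a library left out, counts moved in both directions. The causes there and for DESeq2 were not tested. Members near 1 CPM, such as ZNF154 and ZNF729, are limited by depth.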
